A study of Mus musculus with 12 samples.

Results

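The genes described here are 55 lysosomal genes of the mouse hippocampus, taken by name from the 21878 genes of each deposited table. They code for 11 proteases, 11 lipid and sphingolipid enzymes with their activators, 8 glycosaminoglycan enzymes, 6 glycogen and glycoprotein enzymes, progranulin, 9 membrane proteins and 9 subunits of the proton pump. No cutoff on a measured value picked them, though earlier results of these data were known when they were chosen. RNA came from presenilin conditional double-knockout mice (DKO) and from wild-type mice (WT), killed at 9 in the morning (Day) or 9 in the evening (Night). The 4 groups, Day WT, Day DKO, Night WT and Night DKO, held 3 libraries each. The sources used here do not give the Cre driver, the cells that lost the genes, the age, the sex or whether each library was 1 mouse. The p-values therefore speak of the spread between these libraries alone, and that spread may be technical.

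Lysosomes are acid compartments in which proteases, glycosidases, sulfatases and lipases break down proteins, glycans and lipids. The vacuolar ATPase, a pump with a membrane sector (V0) and an ATP-splitting sector (V1), brings in the protons that these enzymes need. In brain the pump also fills synaptic vesicles, and microglia, the resident phagocytes, are rich in lysosomal proteases. Presenilins are the catalytic subunits of gamma-secretase, a protease of membrane proteins, and their loss has been linked to lysosome acidification.

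Many lysosomal genes carry the E-box TCACGTGA or its core TCACGTG near their start, the element read by the transcription factor TFEB and its relatives. Promoter windows of 300 bases (250 before and 50 after a start) from RefSeq, build GRCm38.p6, were found for 46 of the 55 members. Those without one are Ctsb, Ctsh, Asah1, Galns, Hgsnat, Aga, Npc1, Atp6v1b2 and Atp6v1h. The core, on either strand, stood in the windows of 14 of the 46 members (30.4%), against 4.29% of all 27025 genes with a window and 7.03% of the 10139 tested genes with one. The full TCACGTGA, which contains the core, stood in 7 members (15.2%), 1.12% of all genes and 2.19% of tested genes. Ctsa, Ctsd, Cln3, Mcoln1, Lamp1, Atp6v0d1, Glb1, Naglu, Gaa, Sgsh, Lgmn, Arsa, Atp6v1a and Gla held the core. The 4 stretches below are shown because they lie before the start of 2 enzymes that were higher at night (Lgmn and Glb1), of the main lysosomal membrane protein (Lamp1) and of the catalytic A subunit of the pump (Atp6v1a). They are written 5′ to 3′ on the strand of the gene, with the core in capitals (TCACGTG or, read from the other strand, CACGTGA; in Atp6v1a both overlap).
Lgmn: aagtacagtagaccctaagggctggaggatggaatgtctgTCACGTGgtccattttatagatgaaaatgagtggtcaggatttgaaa
Glb1: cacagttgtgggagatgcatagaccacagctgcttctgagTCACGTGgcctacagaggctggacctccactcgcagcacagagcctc
Lamp1: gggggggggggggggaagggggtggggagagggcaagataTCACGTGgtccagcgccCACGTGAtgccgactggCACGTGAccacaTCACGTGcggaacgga
Atp6v1a: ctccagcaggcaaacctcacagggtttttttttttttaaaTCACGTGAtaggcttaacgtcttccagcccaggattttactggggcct
The Lgmn stretch lies at chr12:102439096-102439182 on the minus strand, with the core 50 bases before a start inside the gene as RefSeq places it. That of Glb1 lies at chr9:114400989-114401075 on the plus strand, 49 bases before the start. That of Lamp1 lies at chr8:13159059-13159160 on the plus strand and holds 4 matches, which begin 62, 45, 28 and 16 bases before the start. That of Atp6v1a lies at chr16:44139344-44139431 on the minus strand, 132 bases before a start that is also inside the gene. None of the 4 stretches overlaps an exon of GENCODE release M21. A match is a description of the letters and not evidence of binding.

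Levels are in FPKM, a unit that divides fragments by transcript length and library size, so that genes can be compared with each other. Their sum per library ran from 151059 to 175692. Reads per library are unknown, and the steps between low values put the relative depth at 0.907 to 1.059 of Day WT 1. Psen2, at 1.47 to 3.64 FPKM in WT, stood at 0.275 to 0.594 in all 6 DKO libraries. Averaged over times Psen2 was lower in DKO by limma (-1.33 ± 0.10, adjusted p = 9.34e-05). Night DKO 1 stood apart in microglial genes: 10 markers of activated microglia summed to 37.0 FPKM there, 93.5 and 95.6 in Night DKO 2 and 3, 61.5 to 64.0 in Day DKO and 32.8 to 43.6 in WT. Choroid plexus markers varied from 61.4 summed FPKM in Day DKO 2 to 3109 in Night WT 3. Night WT 1 also differed from the other libraries in Y-linked genes. The 4 tested Y-linked genes had night against day differences of -0.90 to -0.48 in WT. At night their DKO against WT differences were 0.50 to 0.95, and none was called in either comparison. Whether the sex of the libraries differed between groups was not tested. The microglia and choroid plexus levels are given again beside the results they move with.

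All 55 members passed the filter on low values and were among the 12689 genes tested. Differences are on the log2(FPKM + 1) scale, and a gene is called where its limma p, adjusted by Benjamini and Hochberg's method across the tested genes, is under 0.05. Across the 12 libraries the most abundant member was Psap, the precursor of the saposins that activate sphingolipid enzymes, with a mean of 288.9 FPKM. Atp6v0c (172.9), Atp6v1e1 (115.2), Ctsd (114.9) and Atp6v1b2 (113.2) followed. The lowest were Ctsc (0.832), Idua (0.919), Cln3 (1.02) and Sgsh (1.05), genes near or under 1 FPKM whose differences this scale shrinks. In tissue RNA, fewer cells of a type and less RNA per cell cannot be told apart.

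Most calls among the 55 genes were of a higher level at night. With both genotypes averaged, 13 members were called higher at night and none lower, against 6.07% of all genes called in either direction and 5.19% called higher. They were Lgmn, Ctsl, Ctsa and Ctsf among the proteases, Glb1 and Ppt1 among the lipid enzymes, Naglu among the glycosaminoglycan enzymes, Fuca1 and Man2b1 among the glycoprotein enzymes, Lamp2, Cd63 and Scarb2 in the membrane, and Atp6ap2 in the pump. The differences were small, with a median of 0.12 over the 55 members and 0.05 over all genes tested. Of the 55 members 49 were above 0 (89.1%, against 69.4% of all genes). Unadjusted p was under 0.05 for 30 members (54.5%) and for 26.2% of all genes.

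**Figure D1:**
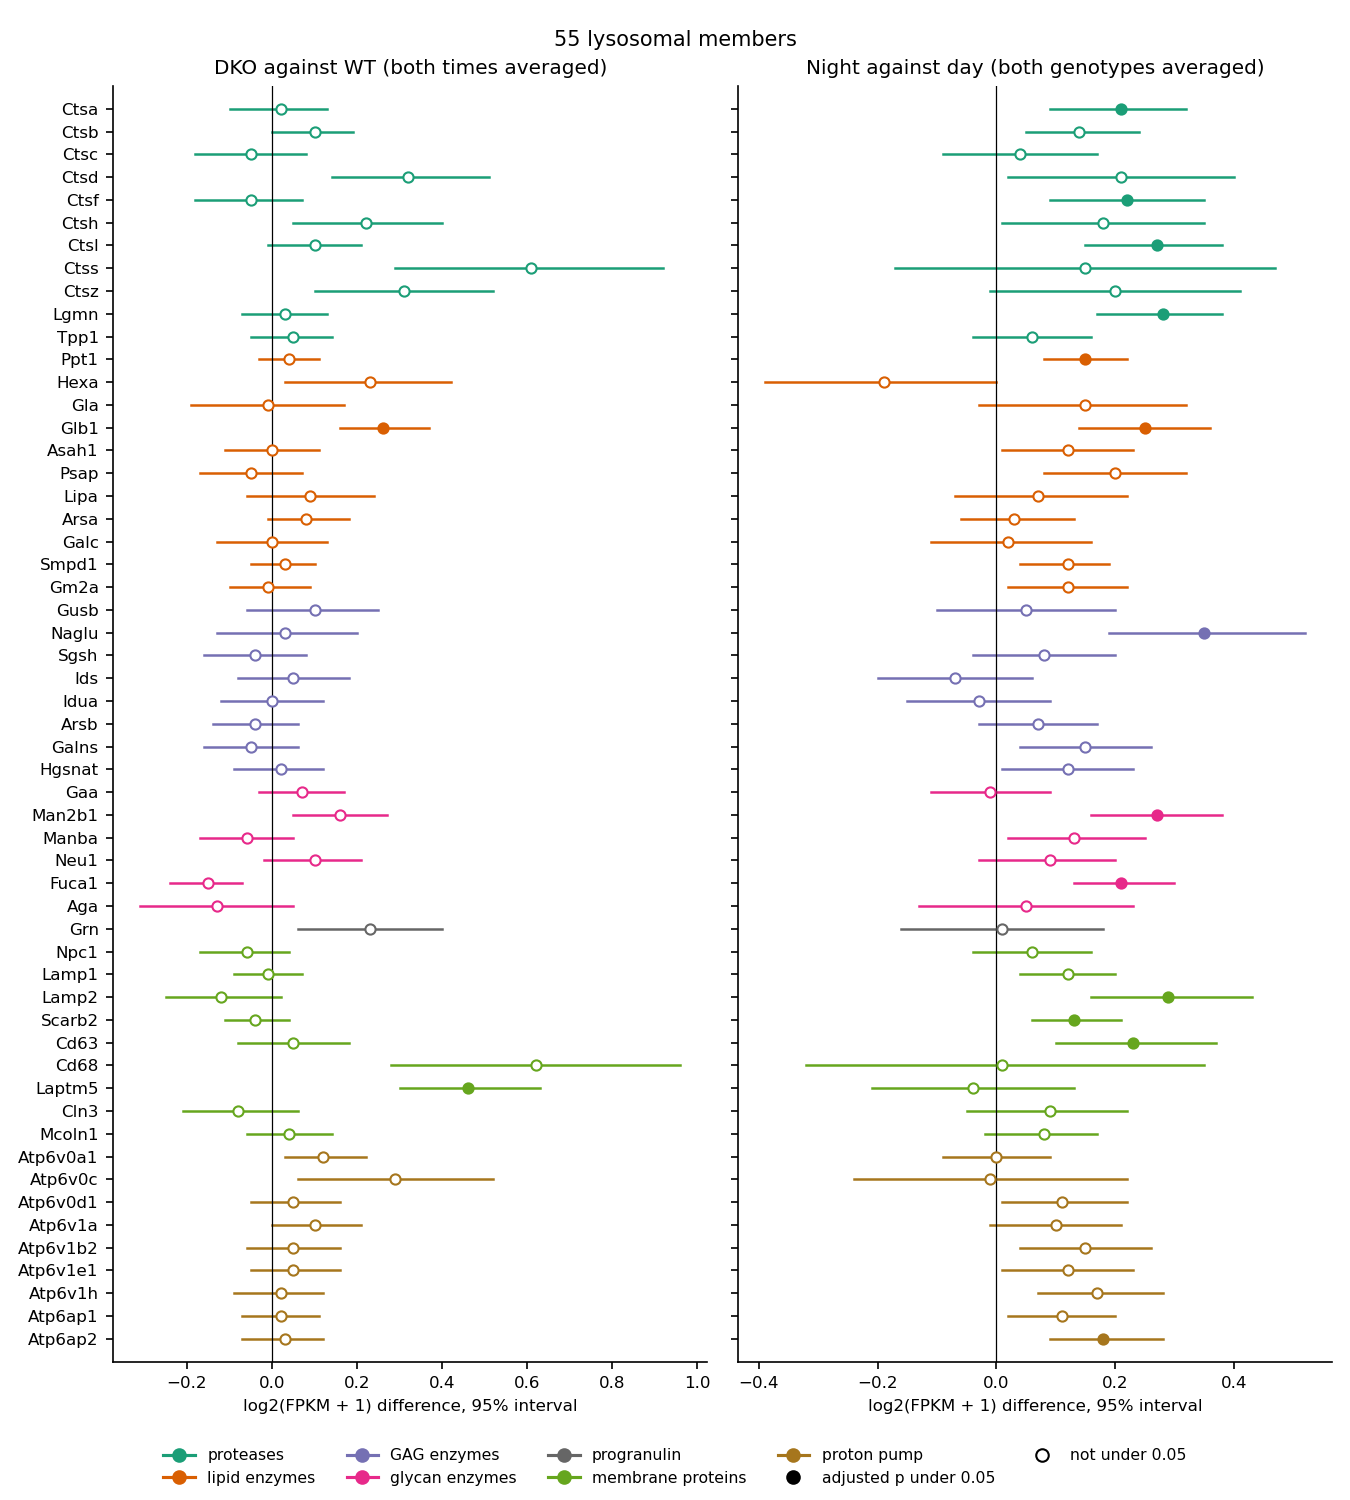
Differences of the 55 members in log2(FPKM + 1) with 95% intervals, DKO minus WT on the left and night minus day on the right, coloured by class; filled points passed adjusted p under 0.05 (2 on the left, 13 on the right). At night 49 of 55 points lie right of 0, while on the left the furthest points are Cd68, Ctss and Laptm5.

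Among the proteases, Lgmn, the asparaginyl endopeptidase that also processes other cathepsins (gene ID 19141; chromosome 12, 102394082 to 102439728), had the smallest p of all members. It stood at 17.2, 18.4 and 16.8 FPKM in Day WT, 17.2, 18.9 and 18.9 in Day DKO, 23.3, 21.3 and 21.0 in Night WT and 20.3, 21.9 and 23.3 in Night DKO. All 6 night libraries lay above all 6 day libraries. The night level was 1.22 times the day level (log2 difference 0.28 ± 0.05 SE, adjusted p = 0.00944 by limma). Ctsl, the cysteine protease cathepsin L (chromosome 13, 64361890 to 64370772), stood at 13.1, 13.8 and 12 in Day WT, 13, 15.2 and 13.8 in Day DKO, 15.7, 16.4 and 15.3 in Night WT and 16.4, 16 and 18.6 in Night DKO. Its night libraries also lay above every day library, though the gap between 15.2 and 15.3 was narrow (0.27 ± 0.05, adjusted p = 0.0169). Ctsa, cathepsin A, the carboxypeptidase that shields beta-galactosidase and neuraminidase from breakdown, ranged from 9.71 to 11.3 by day and from 10.2 to 12.6 at night. Its overlap came from Night DKO 1 (10.2), and the difference was 0.21 ± 0.05 (adjusted p = 0.0393). Ctsf, cathepsin F, was higher by 0.22 ± 0.06 (adjusted p = 0.0444). The other 7 were not called and had differences of 0.21 (Ctsd), 0.20 (Ctsz), 0.18 (Ctsh), 0.15 (Ctss), 0.14 (Ctsb), 0.06 (Tpp1, a tripeptidyl peptidase) and 0.04 (Ctsc). All 11 proteases were above 0 at night as deposited, with a median of 0.20, and with the length trend removed 10 of 11 were. The median protease, relative to its Day WT mean, stood at -0.08 to 0.16 in the day libraries and 0.12 to 0.40 at night.

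Glb1, the beta-galactosidase of gangliosides and keratan sulfate (gene ID 12091; chromosome 9, 114401078 to 114474379), stood at 3.89, 3.75 and 4.03 FPKM in Day WT and 4.64, 5.58 and 4.97 in Night WT. In DKO it stood at 5.22, 5.57 and 4.59 by day and 5.86, 6.10 and 6.0 at night. Within each genotype the night libraries lay above the day libraries, and within each time every DKO library lay above every WT library. Day DKO and Night WT had nearly the same range. Glb1 was the only member called in both the averaged time comparison (0.25 ± 0.05, adjusted p = 0.0189) and the averaged genotype comparison (0.26 ± 0.05, adjusted p = 0.0236). The genotype call was lost without the filter on low values, with a choroid plexus or microglia term, and without any 1 of Day WT 2, Day DKO 2, Night WT 1, Night WT 3, Night DKO 2 or Night DKO 3, which left 1 member called with the latter 6, and its adjusted p ran from 0.0184 to 0.754. Ppt1, the thioesterase that removes palmitate from proteins, stood at 15.4 to 16.8 in the 6 day libraries and 17.8 to 18.5 in the 6 night libraries, with no overlap (0.15 ± 0.03, adjusted p = 0.0209). Psap had a difference of 0.20 ± 0.06 but an adjusted p of 0.0519. Hexa, the alpha subunit of beta-hexosaminidase, had the lowest difference of the 55 (-0.19 ± 0.09, adjusted p = 0.189). Gla (0.15), Smpd1, Gm2a and Asah1 (0.12 each), Lipa (0.07), Arsa (0.03) and Galc (0.02) were above 0 and not called. These are alpha-galactosidase A, acid sphingomyelinase, the GM2 activator, acid ceramidase, acid lipase, arylsulfatase A and galactosylceramidase.

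Among the glycosaminoglycan enzymes only Naglu, the alpha-N-acetylglucosaminidase of heparan sulfate (chromosome 11, 101070090 to 101077672), passed the threshold in this comparison. It stood at 2.32, 3.06 and 2.70 FPKM in Day WT, 2.47, 2.57 and 3.40 in Day DKO, 3.65, 3.68 and 3.88 in Night WT and 3.27, 3.77 and 4.47 in Night DKO. The WT times did not overlap and the DKO times overlapped in 1 library each. The night level was 1.37 times the day level, the highest ratio of the 55 (0.35 ± 0.08, adjusted p = 0.024). The other 7 enzymes of the class lay between -0.07 (Ids, iduronate sulfatase) and 0.15 (Galns, a sulfatase of keratan and chondroitin sulfate). Among them Hgsnat stood at 0.12, Sgsh at 0.08, Arsb at 0.07, Gusb at 0.05 and Idua at -0.03.

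Fuca1, the lysosomal alpha-fucosidase (gene ID 71665; chromosome 4, 135920726 to 135940300), stood at 8.15, 8.23 and 7.72 FPKM in Day WT and 9.55, 9.39 and 8.66 in Night WT. In DKO it stood at 6.89, 6.89 and 6.92 by day and 8.75, 7.94 and 8.52 at night. The times did not overlap within either genotype, and across genotypes they did, because Day WT reached 8.23. Fuca1 was higher at night by 0.21 ± 0.04 (adjusted p = 0.0135). Man2b1, the lysosomal alpha-mannosidase (chromosome 8, 85082730 to 85098739), stood at 4.54, 4.72 and 4.10 in Day WT, 4.83, 4.62 and 4.77 in Day DKO, 5.30, 5.24 and 5.05 in Night WT and 5.56, 6.94 and 6.46 in Night DKO. All 6 night libraries lay above all 6 day libraries, and the difference was 0.27 ± 0.05 (adjusted p = 0.015). The other 4 of the class were not called, with 0.13 for Manba (beta-mannosidase), 0.09 for Neu1 (neuraminidase), 0.05 for Aga (aspartylglucosaminidase) and -0.01 for Gaa (acid alpha-glucosidase, which digests glycogen).

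**Figure D2:**
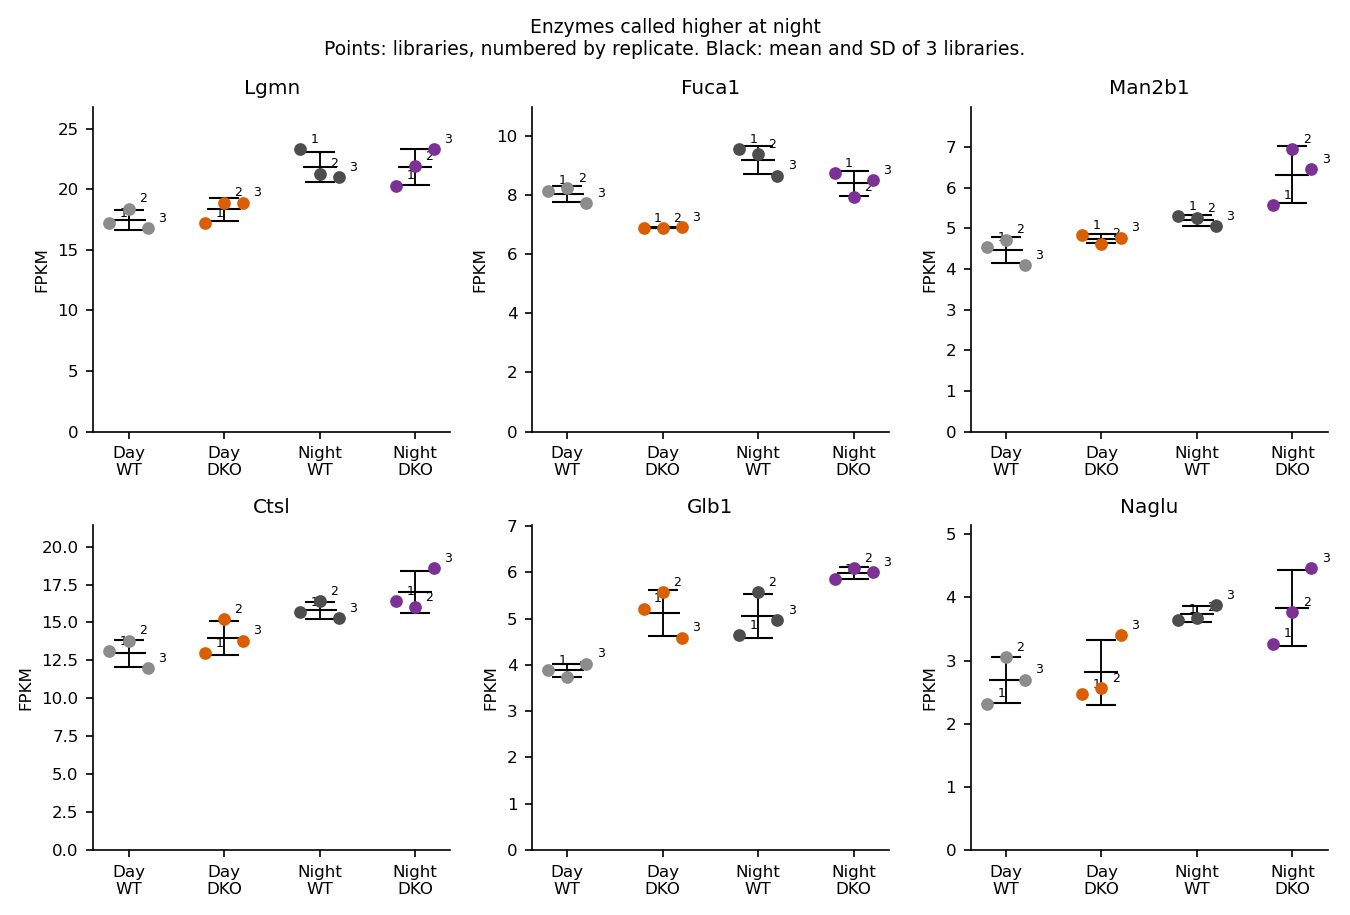
FPKM of 6 enzymes called higher at night in each of the 12 libraries (points, numbered by replicate), with the mean and SD of each group of 3; axes start at 0. For Lgmn, Man2b1 and Ctsl every night library lies above every day library, while Glb1 is high in Day DKO as well as at night.

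Of the membrane proteins, Lamp2, a heavily glycosylated protein of the lysosomal membrane needed for fusion with autophagosomes (chromosome X, 38399647 to 38456460), stood at 9.47, 11.3 and 9.29 FPKM in Day WT, 8.76, 8.03 and 9.74 in Day DKO, 13.2, 10.8 and 12.3 in Night WT and 11.5, 11.2 and 11.7 in Night DKO. The DKO times did not overlap, and the WT times did (0.29 ± 0.06, adjusted p = 0.0221). Cd63, a tetraspanin of late endosomes and lysosomes, ranged from 16.4 to 20.2 by day and from 18.1 to 23.8 at night, with overlap (0.23 ± 0.06, adjusted p = 0.0428). Scarb2, the receptor that carries beta-glucocerebrosidase to the lysosome, was higher by 0.13 ± 0.03 (adjusted p = 0.0429). Lamp1, the partner of Lamp2, stood at 0.12 ± 0.04 (adjusted p = 0.0727), and Mcoln1, the calcium channel of the lysosomal membrane, at 0.08 ± 0.04 (adjusted p = 0.305). Lamp1 ranged from 58.6 to 66.3 FPKM by day and from 63.2 to 72.4 at night, and Mcoln1 from 9.23 to 10.9 and from 10.1 to 11.4, so both overlapped. Cln3 (0.09), Npc1, which exports cholesterol (0.06), Cd68 (0.01) and Laptm5 (-0.04) were not called either.

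In the proton pump 8 of 9 subunits were above 0 at night with a median of 0.11 (7 of 9 with each of the 3 other scalings), and 1 was called. Atp6ap2, an accessory subunit also known as the prorenin receptor (gene ID 70495; chromosome X, 12587759 to 12617051), stood at 56.2, 60.2 and 58.7 FPKM in Day WT, 57.9, 62.2 and 67.3 in Day DKO, 66.1, 72.2 and 70.1 in Night WT and 67.9, 67.5 and 67.6 in Night DKO. Night and day overlapped through 1 library, Day DKO 3. The difference was 0.18 ± 0.04 (adjusted p = 0.034). Atp6v1h, the H subunit that couples the sectors, stood at 0.17 ± 0.05 (adjusted p = 0.0538), and Atp6v1b2, the B subunit of brain, at 0.15 ± 0.05 (adjusted p = 0.09). Atp6v0c (-0.01) and Atp6v0a1 (0.00), both of V0, had the lowest values of the 9.

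How many members passed at night depended on the scaling. With median-of-ratios scaling 6 members were called, with quantile normalization 6, and with the trend on transcript length removed 4, all of them higher. Over all 12689 genes the same fits called 489, 576 and 446, against 770 as deposited. Over all genes the share of time calls that were higher was 85.6% as deposited and 42.3%, 40.1% and 43.3% with these scalings, while the members' median stayed above that of all genes (0.06, 0.05 and 0.06, against 0.00 each time). Lgmn, Ctsl, Man2b1 and Fuca1 were called in all 22 fits of this comparison. Glb1 was called in 21, Naglu and Lamp2 in 17, Ppt1 in 16, Atp6ap2 in 10, Ctsa in 8, Cd63 in 7, and Ctsf and Scarb2 in 6. With a choroid plexus term 6 members were called, and leaving out 1 library gave between 5 (without Day WT 1) and 16 (without Day WT 2). Fewer than 9 were also called without Day DKO 1 (7), Night WT 1 (7), Night WT 3 (7) and Night DKO 3 (8).

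Beside these values, several marker lists also differed by time. All 5 blood markers were called higher at night, as were 2 of 8 oligodendrocyte markers (Mog and Cldn11), 1 of 8 astrocyte markers (Aldh1l1) and 1 of 3 tested markers of border macrophages (Cd163). Of the 11 endothelial and mural markers 1 was called higher and 1 lower, and of the 8 excitatory neuron markers 1, Neurod2, was called lower. None of the 12 choroid plexus markers was called, but all 12 were above 0 at night with a median of 0.45 (0.95 in DKO and 0.10 in WT), and 4 had an unadjusted p under 0.05. They summed to 61.4 to 2738 FPKM in the day libraries and 1341 to 3109 at night. Summed blood markers stood at 90.5 to 153.1 FPKM in the day libraries and 115.9 to 285.4 at night, and border macrophage markers at 1.1 to 2.39 by day and 2.48 to 3.51 at night. No microglia marker of 13 was called by time. With a microglia term 10 members were called at night, with a median of 0.12 over the 55 members. Beyond the fits with a choroid plexus or microglia term, the part of these cell types in the night result was not tested.

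Taken separately, the genotypes had the same direction with fewer calls. In WT 1 member, Lgmn, was called between night and day (0.31 ± 0.07, adjusted p = 0.0429), against 1.67% of all genes. That call was lost in 16 of 23 fits, among them the 3 with another scaling and 10 of the 12 with 1 library left out. In DKO no member was called, against 0.299% of all genes, with 15 members at an unadjusted p under 0.05. The largest DKO value was that of Man2b1 (0.35 ± 0.07, adjusted p = 0.0624), which stood at 0.19 ± 0.07 in WT. The members' median was 0.15 in WT (all genes 0.07) and 0.09 in DKO (all genes 0.02). The genotype by time interaction had no call among the members or among all genes (0%), with 2 members and 1099 genes at an unadjusted p under 0.05, and the smallest adjusted p of a member was 0.549 (Arsa, arylsulfatase A).

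Between genotypes few members were called. With both times averaged 2 members were called higher, Laptm5 and Glb1, and none lower. Of all genes 1.88% were called in either direction and 1.00% were called higher. In that comparison 37 of the 55 members were above 0 (67.3%, against 57.4% of all genes). Unadjusted p was under 0.05 for 13 members (23.6%) and for 16.2% of all genes. By day no member was called, against 1.18% of all genes, and 9 members (16.4%) had an unadjusted p under 0.05, as did 17.0% of all genes. At night no member was called either, against 0.0236% of all genes, and 10 members (18.2%) had an unadjusted p under 0.05, against 9.2% of all genes. Averaged over times, the class medians were 0.10 for the proteases (9 of 11 above 0), 0.03 for the lipid enzymes (7 of 11), 0.01 for the glycosaminoglycan enzymes (4 of 8), 0.01 for the glycogen and glycoprotein enzymes (3 of 6), -0.01 for the membrane proteins (4 of 9) and 0.05 for the pump (9 of 9, and 6 of 9 with quantile normalization). The members' median was 0.04 averaged (all genes 0.01), 0.07 by day (0.04) and 0.04 at night (-0.01). The day comparison of genotypes shares its Day WT libraries with the comparison of times in WT, and each other pair of such comparisons shares 1 group.

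Laptm5, a lysosomal membrane protein of blood cells and microglia (gene ID 16792; chromosome 4, 130912890 to 130936148), stood at 4.75, 4.52 and 5.44 FPKM in Day WT and 7.12, 6.42 and 6.62 in Day DKO. At night it stood at 4.40, 4.74 and 4.19 in WT and 5.40, 8.19 and 7.39 in DKO. The groups did not overlap within either time, and Night DKO 1 was the lowest DKO library. The DKO level was 1.47 times that of WT (0.46 ± 0.08, adjusted p = 0.0146). Laptm5 was called in 20 of 22 fits, and not with the filter on low values dropped or with a microglia term.

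Ctss, cathepsin S, a protease of phagocytes that stays active at neutral pH (gene ID 13040; chromosome 3, 95526786 to 95556405), stood at 11.8, 12.4 and 11.5 FPKM in Day WT and 19.4, 20.3 and 19.3 in Day DKO. At night it stood at 14.2, 14.9 and 13.3 in WT and at 12.3, 26.1 and 27.9 in DKO. The day groups were far apart, and the night groups overlapped because Night DKO 1 lay below every Night WT library. The averaged difference of 0.61 ± 0.15 missed the threshold (adjusted p = 0.0554). Cd68, a glycoprotein of phagocyte lysosomes (chromosome 11, 69664213 to 69666170), stood at 1.56, 2.41 and 1.78 in Day WT, 2.99, 3.55 and 3.48 in Day DKO, 1.71, 1.83 and 1.98 in Night WT and 1.75, 5.08 and 4.47 in Night DKO. It had the same form, with Night DKO 1 within the WT range, and it also missed the threshold (0.62 ± 0.16, adjusted p = 0.0623).

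Without Night DKO 1, a library singled out by its own values, 9 members were called higher in DKO in the averaged comparison. They were Ctss (0.79 ± 0.04, adjusted p = 2.28e-06), Cd68 (0.80 ± 0.07, adjusted p = 0.000114), Laptm5 (0.54 ± 0.05, adjusted p = 0.00024), Glb1, Man2b1, Ctsd, Ctsh, Ctsz and Hexa. Cd68 and the last 4 were named after their values were seen. Then 4 members were called at night, Ctss (0.89 ± 0.07), Cd68 (1.02 ± 0.11), Laptm5 (0.69 ± 0.08) and Ctsz (0.55 ± 0.09), and 3 by day, Ctss, Cd68 and Laptm5. Over all 12663 genes tested in that fit 242 were called averaged, 38 at night and 160 by day, against 238, 3 and 150 of 12689 with all libraries. The day differences themselves did not move without this library, and their spread, shared across groups, became smaller. Ctsd, cathepsin D, the main aspartic protease, stood at 98.0, 103.4 and 80.1 FPKM in Day WT, 113.9, 114.8 and 127.2 in Day DKO, 114.4, 104.5 and 110.1 in Night WT and 109.8, 142.6 and 159.4 in Night DKO (0.32 ± 0.09 with all libraries, adjusted p = 0.0769). Its day groups did not overlap, and at night Night DKO 1 lay within the WT range. These counts rest on leaving out 1 library and are no independent support.

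**Figure D3:**
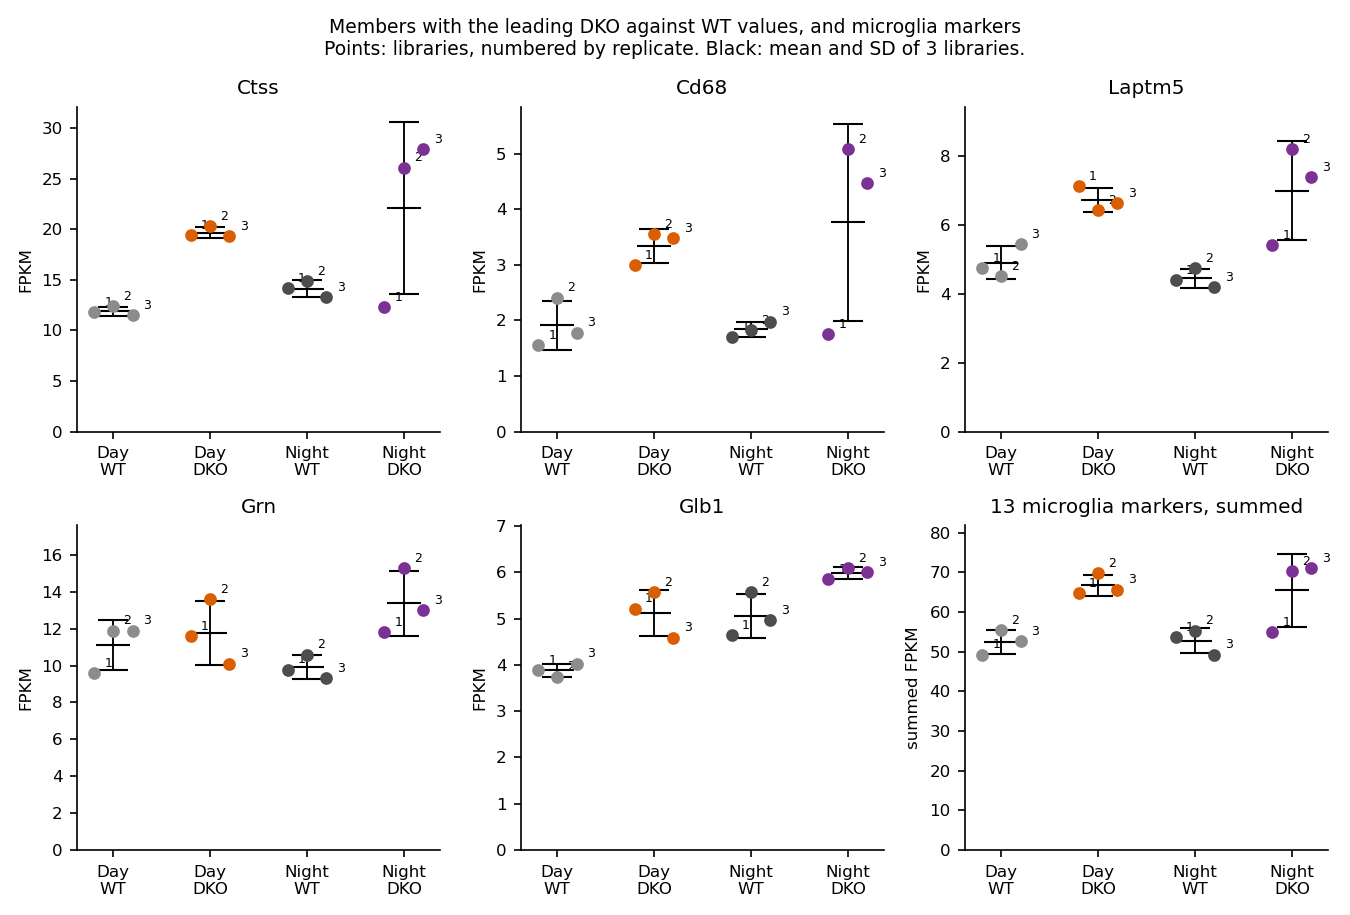
FPKM of Ctss, Cd68, Laptm5, Grn and Glb1, and the summed FPKM of 13 microglia markers, in each of the 12 libraries (points, numbered by replicate), with the mean and SD of each group of 3; axes start at 0. Night DKO 1 is the lowest Night DKO library in all 6 panels, and for Ctss, Cd68 and the markers it lies within the range of the WT libraries.

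Microglia markers moved with these members. The 13 markers, none of them a member, summed to 49.2 to 55.4 FPKM in the WT libraries, 64.8 to 69.7 in Day DKO and 54.9, 70.3 and 71.1 in Night DKO 1, 2 and 3. All 13 were above 0 in DKO and 4 were called (Olfml3, Aif1, Csf1r and Gpr34), with a median of 0.18, and no marker was at 0 in all libraries. Of 9 tested markers of activated microglia 3 were called higher (Ccl6, Tyrobp and Cst7), with a median of 0.65. Of these 9 markers 8 were above 0 and 1 was below, at -0.46. None of the 3 tested border macrophage markers was called, and all 3 were below 0 in DKO, with a median of -0.05. In the other marker lists, Gfap among the astrocyte markers and Neurod2 among the excitatory neuron markers were called higher. Called lower were 3 of 11 endothelial and mural, 3 of 5 blood and 1 of 8 oligodendrocyte markers. All 8 oligodendrocyte markers (median -0.22) and all 5 blood markers (median -0.52) were below 0. So were 10 of the 11 endothelial and mural markers, with 1 above 0 and a median of -0.19. Of the astrocyte markers 5 of 8 were above 0, and of the excitatory neuron markers 6 of 8. The 12 choroid plexus markers were all below 0 in DKO averaged and by day, and 8 of 12 at night, and none was called, with a median of -0.52 averaged, -1.01 by day (9 at an unadjusted p under 0.05) and -0.02 at night, and their part in these differences was not tested beyond the fits with a choroid plexus term. With the mean microglia marker level as a term in the fit, no member was called and 1 gene in all was. Ctss then stood at -0.08 ± 0.14, Cd68 at -0.07 ± 0.17, Laptm5 at 0.18 ± 0.11 and Glb1 at 0.20 ± 0.09, and the members' median at -0.04. The marker level was higher in every DKO library than in every WT library except for Night DKO 1, so marker level and genotype cannot be told apart well in this fit.

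Grn, progranulin, a secreted protein that lysosomes cleave to granulins (chromosome 11, 102430507 to 102436809), stood at 9.58, 11.9 and 11.9 FPKM in Day WT, 11.6, 13.6 and 10.1 in Day DKO, 9.78, 10.6 and 9.32 in Night WT and 11.8, 15.3 and 13 in Night DKO. The day groups overlapped and the night groups did not. The differences were 0.07 ± 0.11 by day, 0.39 ± 0.11 at night (adjusted p = 0.323) and 0.23 averaged over times (adjusted p = 0.168). None was called, and neither was the genotype by time interaction of 0.32 ± 0.16 (adjusted p = 0.588). The day difference of Grn turned to -0.13 ± 0.10 with a choroid plexus term and to -0.23 ± 0.13 with a microglia term, with which the night difference was 0.11 ± 0.12 and the averaged one -0.06 ± 0.11, none of them called. Fuca1 went the other way from Laptm5: Day DKO, at 6.89 to 6.92, lay below Day WT, at 7.72 to 8.23. Its averaged difference of -0.15 ± 0.04 was not called as deposited (adjusted p = 0.0655) and was called lower with the 3 other scalings (-0.17 to -0.18, adjusted p = 0.0293 to 0.0338). Among the glycosaminoglycan enzymes Gusb had the smallest p (0.10 ± 0.07, adjusted p = 0.532), and the 8 lay between -0.05 and 0.10. With median-of-ratios scaling the share of all genotype calls that were higher was 43.4%, against 53.4% as deposited.

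No subunit of the proton pump was called between genotypes at either time or averaged. By day all 9 subunits were above 0 in DKO with a median of 0.13, against 0.04 for all genes; all 9 also were after median-of-ratios scaling or removal of the length trend, and 7 after quantile normalization. The interaction of the 9 had a median of -0.13 (all genes -0.05) and no call, with a smallest adjusted p of 0.577 (Atp6ap1). The median subunit, relative to its Day WT mean, stood at -0.05 to 0.06 in Day WT, 0.04 to 0.18 in Day DKO, 0.14 to 0.27 in Night WT and 0.17 to 0.20 in Night DKO. At night 4 of 9 were above 0 with a median of -0.02. Atp6v0a1, the a1 subunit of V0 (gene ID 11975; chromosome 11, 101009422 to 101063719), stood at 42.9, 41.7 and 46.2 FPKM in Day WT, 49.8, 49.2 and 49.5 in Day DKO, 45.4, 48.6 and 42.4 in Night WT and 47.4, 49.3 and 46.3 in Night DKO. The day groups did not overlap and the night groups did. The day difference was 0.18 (95% interval 0.05 to 0.31, adjusted p = 0.163), the night difference 0.07 (-0.06 to 0.20) and the averaged one 0.12 ± 0.04 (adjusted p = 0.167).

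Atp6v1a, the catalytic A subunit of V1 (chromosome 16, 44085402 to 44139702), stood at 73.7, 80.6 and 86.1 FPKM in Day WT, 83.5, 93.7 and 93.8 in Day DKO, 87.2, 95.7 and 87.8 in Night WT and 90.2, 92.7 and 94.4 in Night DKO. Both pairs of genotype groups overlapped, and the averaged difference was 0.10 ± 0.05 (adjusted p = 0.329). Atp6v0c, the ring subunit that carries the protons (chromosome 17, 24163865 to 24169678), stood at 160.5, 162.3 and 168.5 in Day WT, 170.7, 186.9 and 180.5 in Day DKO, 169.3, 174.3 and 103.8 in Night WT and 218.8, 197.2 and 182.3 in Night DKO. The DKO libraries lay above the WT libraries at both times, and Night WT 3 lay below all other libraries. The averaged difference was 0.29 ± 0.11 (adjusted p = 0.197), and without Night WT 3 it was 0.17 ± 0.06 (adjusted p = 0.19), with a night difference of 0.21 in place of 0.45. The gene has pseudogene copies, so how its reads were assigned is uncertain, and the same holds for Cd63. The 95% intervals of the other 6 averaged pump differences lay between -0.09 and 0.16.

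**Figure D4:**
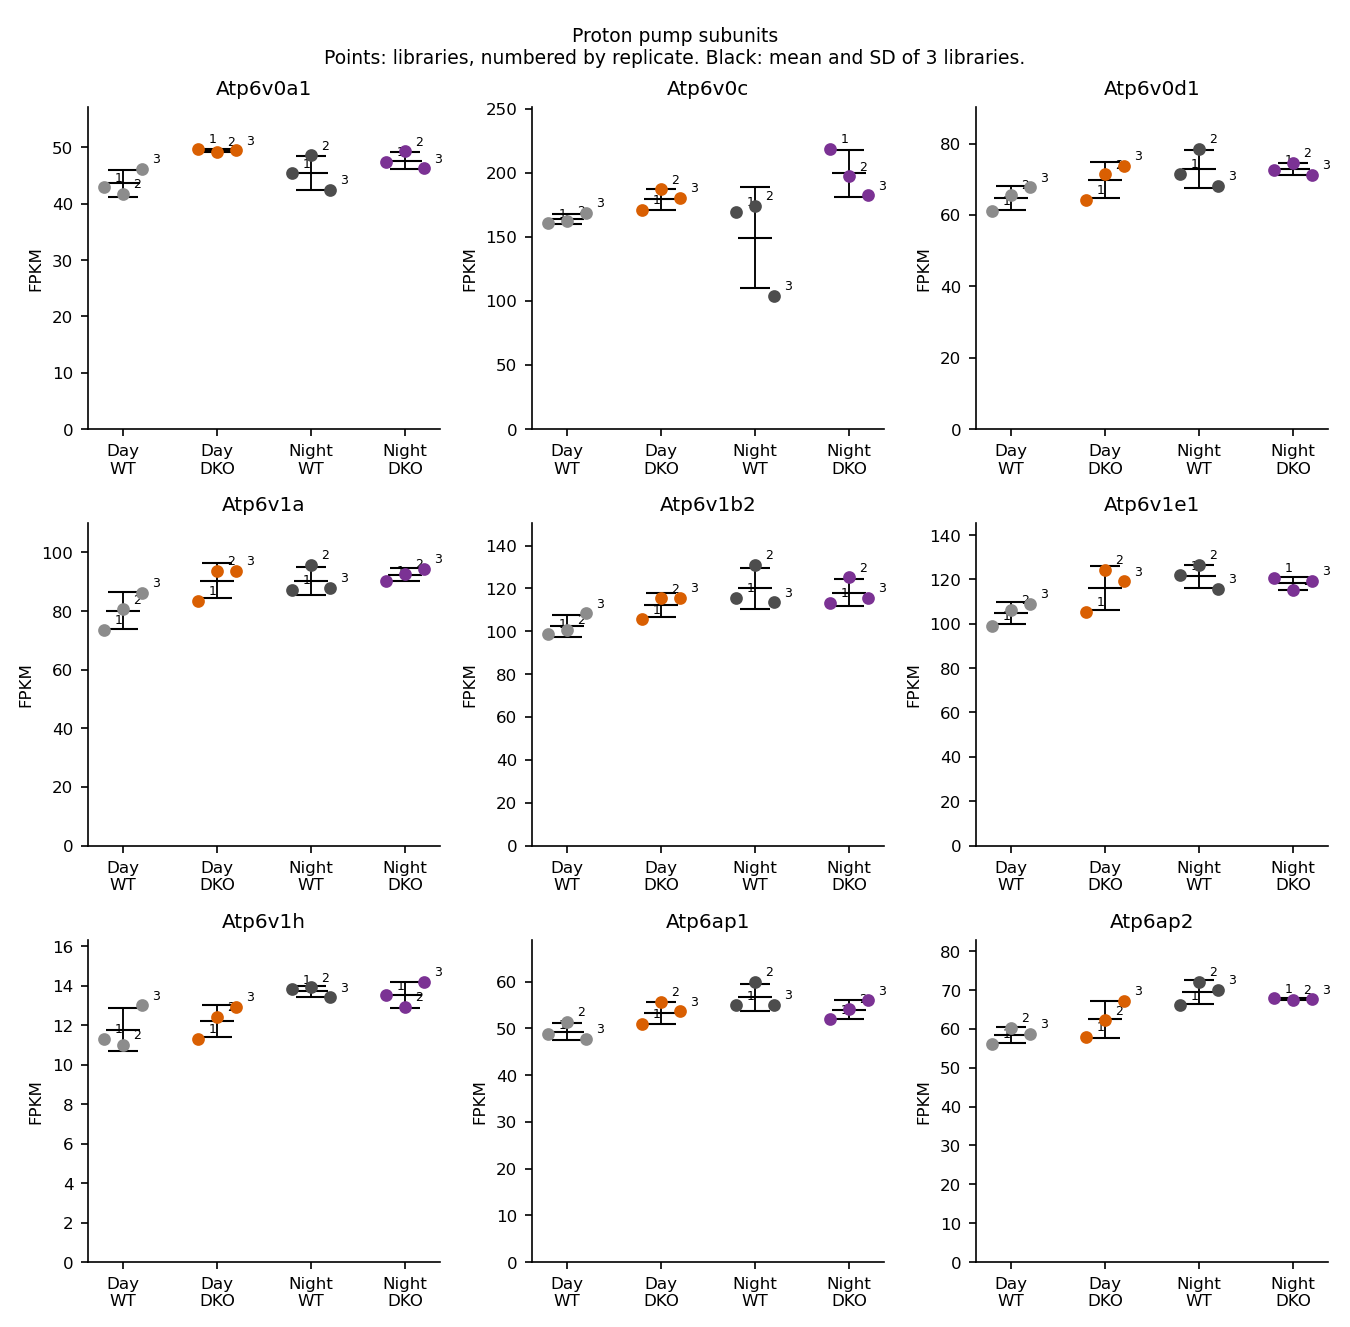
FPKM of the 9 proton pump subunits in each of the 12 libraries (points, numbered by replicate), with the mean and SD of each group of 3; axes start at 0. The groups overlap in most panels; Atp6v0a1 is separate between Day WT and Day DKO, and Atp6v0c is separate between genotypes at both times, with Night WT 3 (103.8) the lowest point of its panel.

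For 89 other tested genes of the lysosome the median difference at night was 0.08, against 0.05 for all genes. Of the 89, 7 were called higher and none lower. Over all genes 5.19% were called higher and 6.07% in either direction. Among the 7 were Ctso, a cathepsin (0.25 ± 0.04, adjusted p = 0.00788), Npc2, which carries cholesterol out of the lysosome (0.25 ± 0.05, adjusted p = 0.0251), Laptm4a, Arsg, Cpq and the pump subunit Atp6v1g1. Of 11 tested pump subunits outside the 55, 1 was called at night and none between genotypes. None of the 15 tested regulators of lysosomal genes and of TORC1 was called in either averaged comparison. Among them, Tfeb stood at -0.03 ± 0.06 in DKO and 0.09 ± 0.06 at night, and Tfe3 at 0.13 ± 0.05 in DKO (adjusted p = 0.24) and 0.05 ± 0.05 at night.

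Among the 3 tested inhibitors of cathepsins, 1 was called between genotypes. Cst7, cystatin F, an inhibitor of cathepsins made by activated microglia, stood at 0 to 0.194 in the 6 WT libraries, 1.92 to 2.59 in Day DKO and 0.0274, 6.37 and 5.69 in Night DKO 1, 2 and 3 (1.67 ± 0.37, adjusted p = 0.0387). Only Night DKO 1 among the DKO libraries lay within the WT range. As in Ctss and Cd68, Night DKO 1 was the lowest DKO library.

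The E-box core was also set beside the differences. At night 4 of the 14 members with a match were called and 9 of the 32 without, with medians of 0.12 and 0.11. Over all tested genes with a window, 7.15% of those with a match and 5.93% of those without were called at night. Between genotypes 1 of 14 and 1 of 32 members were called, with medians of 0.04 and 0.05, against 0.982% of tested genes with a match and 1.76% of those without.

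**Figure D5:**
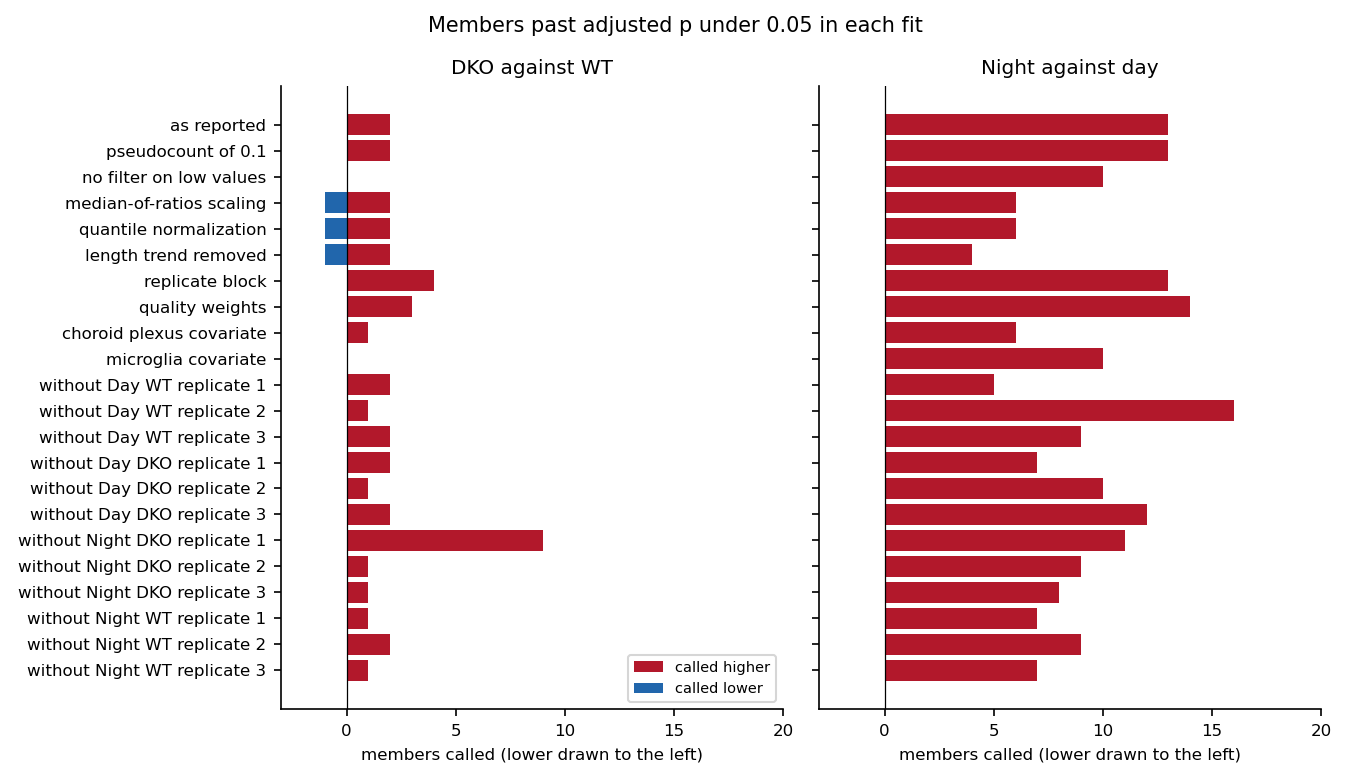
Number of the 55 members called in the averaged genotype comparison (left) and the averaged time comparison (right) in the reported fit and each other fit; bars to the left of 0 are members called lower. The genotype count runs from 0 to 9, with 9 without Night DKO replicate 1, and the time count from 4 with the length trend removed to 16 without Day WT replicate 2.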

How the data were processed

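Stranded libraries were made from hippocampal total RNA after removal of ribosomal RNA, per the labels' protocols, and the submitters' processing notes name build GRCm38.p6. The sources used here do not name the aligner or quantifier. Each library's deposited table holds 1 FPKM value per gene. That unit was read from the values, since longer transcripts had lower smallest values above 0 (Spearman's rho = -0.471 across 3233 genes). Depth is therefore unknown and no counting interval is given. Coordinates came from RefSeq.

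FPKM values were taken as log2(FPKM + 1). The 12689 genes with at least 0.5 FPKM in at least 3 libraries were fitted with limma 3.58.1 in R 4.3.3, with 1 mean per group over 12 libraries and an intensity trend, 2-sided. All adjusted p-values come from such fits. The 7 comparisons were the genotypes at each time, the times in each genotype, the interaction and the 2 averages. The fit was tested on simulated data.

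The members, lists and tests were chosen with earlier results of these data known. Per-library values are given for up to 12 called members with the smallest adjusted p, the leading member of each class in both averaged comparisons, and Grn, Psen2, Atp6v1a, Atp6v0c, Lamp1 and Mcoln1; other lists by up to 5 called genes. Cd68, which this rule does not cover, Ctsd and the others so marked were chosen after their values were seen. Alternatives were a pseudocount of 0.1, no filter, 3 scalings, a replicate block, quality weights, marker terms, each library left out and only the groups compared. Some results are not reported here.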

Additional observations from a re-analysis of the deposited data

How the results depend on the processing

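Of 302 repeats of the member counts and medians 238 kept their value, within 1.5 times for counts and within 1 SD between replicates for medians. No single member call changed direction in 337 repeats, and 117 missed the threshold. Leaving out 1 library gave 0 to 3 called members for the genotypes by day, 0 to 4 at night, 1 to 9 averaged, 0 to 2 for the times in WT, 0 to 2 in DKO and 5 to 16 averaged. The members' median then ran from 0.03 to 0.09 for the genotypes by day, 0.02 to 0.05 at night, 0.11 to 0.17 for the times in WT and -0.08 to 0.02 for the interaction.

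Same-numbered libraries correlated at -0.116 to 0.178 in their deviations, so the numbers were not taken as pairs; with a replicate block 4 members were called for the averaged genotypes (Ctss and Cd68 added) and 0 for the times in WT, and no other count moved. For the genotypes by day 1 member was called with a pseudocount of 0.1 (Glb1), with median-of-ratios scaling or the length trend removed (Fuca1, lower), and with only the groups compared (Ctss); the median was 0.02 with median-of-ratios scaling, 0.00 with quantile normalization and -0.03 with a microglia term (-0.05 at night, -0.04 averaged). For the times in WT, 2 were called with a pseudocount of 0.1 or a choroid plexus term, 4 with quality weights and 0 with the 3 scalings or only the groups compared; the median was 0.07, 0.05 and 0.06 with median-of-ratios, quantile and length settings. The interaction median was 0.04 with both the median-of-ratios and quantile settings. For the averaged genotypes 0 were called without the filter or with a microglia term and 1 with a choroid plexus term. For the averaged times 6 were called with median-of-ratios scaling, quantile normalization or a choroid plexus term and 4 with the length trend removed, with medians of 0.06, 0.05 and 0.06 for the 3 scalings. The cause was not tested. With 3 libraries a group and no read counts, small differences of genes near 1 FPKM could not be resolved.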
